A study of Rattus norvegicus with 6 samples.

Results

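The interferon regulatory factor (IRF) genes of rat aortic vascular smooth muscle cells (RASMCs) were followed in 6 RNA-seq libraries. The rule took the 8 gene symbols Irf1, Irf2, Irf3, Irf4, Irf5, Irf7, Irf8 and Irf9, all of which were present among the 22574 symbols of the count table. In 3 libraries the cells had been stimulated with citrullinated histone H3 (H3CIT, 0.03 μM) plus double-stranded DNA (dsDNA, 300 ng/ml), which are building blocks of extracellular traps, and 3 control libraries came from cells given bovine serum albumin. RASMCs are primary cells grown out of the aorta of male Sprague-Dawley rats aged 8 weeks, freed of adventitia and endothelium before culture. For its cell culture work the study states that wells plated from a single rat served as replicates, so p-values cover the spread between wells and library preparations and not between animals, and the duration of the challenge is not given in the sources used here.

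IRFs are transcription factors that share a DNA-binding domain recognizing repeats of the letters GAAA, the interferon-stimulated response element (ISRE). IRF3 and IRF7 are phosphorylated downstream of cytosolic DNA sensing and Toll-like receptors and switch on type I interferon genes, and IRF9 is the DNA-binding subunit of the complex ISGF3, which carries the interferon signal to the nucleus. IRF1 and IRF2 bind the same elements as activator and, classically, repressor, IRF5 acts in inflammatory signaling of myeloid cells, and IRF4 and IRF8 are best known from lymphocytes, macrophages and dendritic cells. Smooth muscle cells carry interferon receptors, and IRF activity is regulated largely at the protein level, which was not measured here.

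The libraries held between 17573905 and 18742395 counts. Libraries of the same group all differed by more than sampling noise (lowest chi-square per gene 3.31), so each was kept as a replicate. All 8 contractile smooth muscle markers were counted in every library. Their summed level was 5746 to 6303 CPM (counts per 1000000 counts of the TMM-scaled library) after H3CIT + dsDNA and 8484 to 9225 CPM in controls. Most of the sum came from Acta2 (means 3115 and 5025 CPM) and Tagln (2032 and 2690 CPM). Acta2, Tagln, Cnn1 and Smtn were lower and Myocd higher at an adjusted p-value under 0.05 in edgeR. Myh11, Des and Lmod1 were not called. Smtn, a cytoskeletal smoothelin, kept its call in 6 of 15 alternative fits, with an adjusted p between 0.0176 and 0.202. Of 10 macrophage markers 5 could be tested, as could 4 of 6 dendritic cell, 1 of 8 lymphocyte and 4 of 6 endothelial markers. None of these was called by edgeR, DESeq2 or limma-voom, and 0 had an unadjusted p under 0.05 in edgeR. The macrophage sum was 72.8 to 75.0 CPM against 73.5 to 76.6 CPM. Most of it came from Cd14 (means 52.1 and 52.3 CPM) and Csf1r (18.1 and 19.7 CPM), neither of them called. Aif1, too low to test, had 8, 9 and 9 counts in the stimulated libraries and 2, 2 and 3 in controls. The leukocyte genes Ptprc and Itgam had at most 1 count in any library. Itgax, on the dendritic cell list, was at 339 to 356 CPM in all 6 libraries, while Clec9a on the same list had no count. The part of the contractile genes in the IRF results was not tested.

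Genes that passed a filter on low counts were compared with the quasi-likelihood test of edgeR, and a gene was called at a Benjamini-Hochberg adjusted p-value under 0.05 over all 12591 genes tested. Of the 8 IRF genes, 7 were tested, all of them with at least 10 counts in every library, and 3 were called, namely Irf3, Irf7 and Irf9, all higher after H3CIT + dsDNA. That is 42.9% of those tested, where 2.20% of all tested genes were called in either direction and 1.94% were called higher. The 8 genes were chosen with earlier results of these data known, so these shares are a description and not a test. The number of called genes, 277, fell to 164 without H3CIT + dsDNA library 1 and to 184 without control library 1, while the 3 IRF calls were kept in each case. The 3 stimulated libraries lay wholly above the 3 controls for Irf3, Irf7 and Irf9, and the groups overlapped for the other 4 tested members, while over all tested genes 19.1% had groups that did not overlap. The median log2 fold change over the 7 members was that of Irf5, 0.31, and over all tested genes it was -0.0013.

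**Figure D1:**
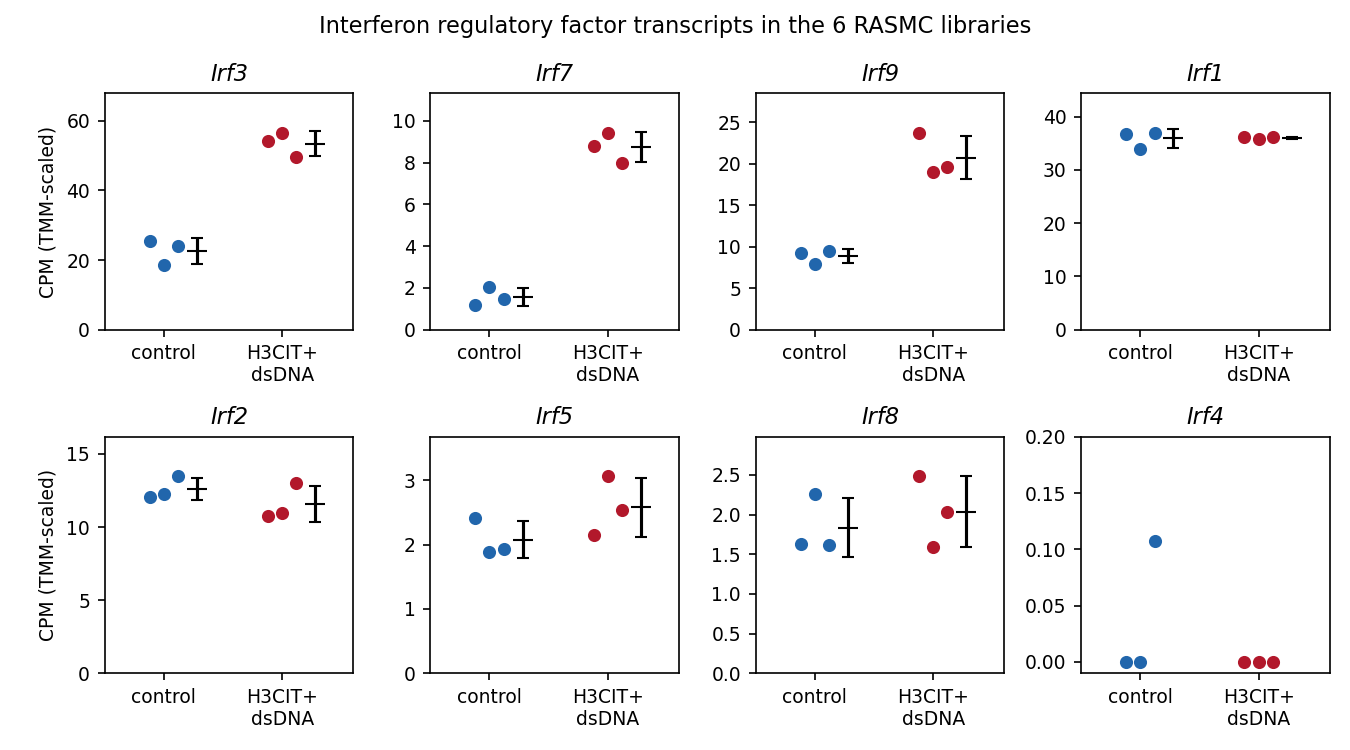
Level of each IRF gene in CPM after TMM scaling (vertical axis from 0, or just under it for Irf4, with a different scale in each panel) for 3 control libraries (blue) and 3 H3CIT+dsDNA libraries (red), with black bars for mean and SD except for Irf4. Irf3, Irf7 and Irf9 show separated groups, the Irf1, Irf2, Irf5 and Irf8 groups overlap, and Irf4 has 2 counts in 1 control library.

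Irf3 encodes the factor that the kinase TBK1 phosphorylates after STING or TRIF signaling, and which is present in most cells before any stimulus. It had 985, 996 and 898 counts in H3CIT + dsDNA libraries 1 to 3 and 453, 343 and 446 counts in control libraries 1 to 3. Every stimulated library thus held more than any control, and control 2 was the lowest of the 6. The level was 53.4 ± 3.61 CPM (SD, n = 3) compared with 22.6 ± 3.65 CPM (SD, n = 3), and the log2 fold change was 1.24 ± 0.10 (SE), with a 95% interval from 1.03 to 1.45 and an edgeR adjusted p of 2.59e-06. The fold change was 2.36. Among the 12591 tested genes Irf3 ranked 121st by log2 fold change and 80th by p-value.

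Irf7 encodes the relative of IRF3 that is classically low in resting cells and induced by interferon, and amplifies type I interferon production. The stimulated libraries had 159, 166 and 145 counts and the controls 21, 38 and 27. Control 2, the lowest control for Irf3, was here the highest, and the gap to the lowest stimulated library remained wide. The means were 8.72 ± 0.717 CPM (SD, n = 3) and 1.56 ± 0.445 CPM (SD, n = 3), giving 2.48 ± 0.20 (SE) on the log2 scale, with a 95% interval from 2.06 to 2.91 and an edgeR adjusted p of 2.87e-06. At 5.58-fold this was the largest change among the tested members, ranking 16th of all tested genes by log2 fold change. The precision was limited by the controls, where the coefficient of variation between libraries was 28.5% and counting error alone amounts to 18.68% at this depth, against 8.22% and 7.99% in the stimulated group.

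Irf9 encodes the DNA-binding subunit of ISGF3. It had 430, 334 and 355 counts in the stimulated libraries and 165, 146 and 176 in the controls. Stimulated library 1 was the highest, and the other two still lay well above each control. Mean levels were 20.7 ± 2.59 CPM (SD, n = 3) and 8.86 ± 0.872 CPM (SD, n = 3), and the log2 fold change was 1.23 ± 0.11 (SE), with a 95% interval from 0.99 to 1.46 and an edgeR adjusted p of 9.06e-06. The fold of 2.34 was close to that of Irf3, and Irf9 ranked 124th by log2 fold change.

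Ratios of counts within a library do not depend on how libraries are scaled, and were used to compare the rises with each other. Irf9 per Irf3 count was 0.437, 0.335 and 0.395 in the stimulated libraries and 0.364, 0.426 and 0.395 in controls. These values overlapped, with means of 0.389 ± 0.0509 (SD, n = 3) and 0.395 ± 0.0307 (SD, n = 3) and p = 1 in a two-sided exact permutation test. A ratio of the group means of 0.985 was obtained, so that no difference between the Irf9 and Irf3 rises was seen beyond the spread of the libraries. Irf7 per Irf3 count was 0.161, 0.167 and 0.162 in the stimulated libraries and 0.0464, 0.111 and 0.0605 in controls. The stimulated ratios were nearly alike and lay above each control ratio, with group means 2.25-fold apart. The exact permutation p, two-sided, was 0.1, which is the smallest that 3 against 3 libraries can give.

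**Figure D2:**
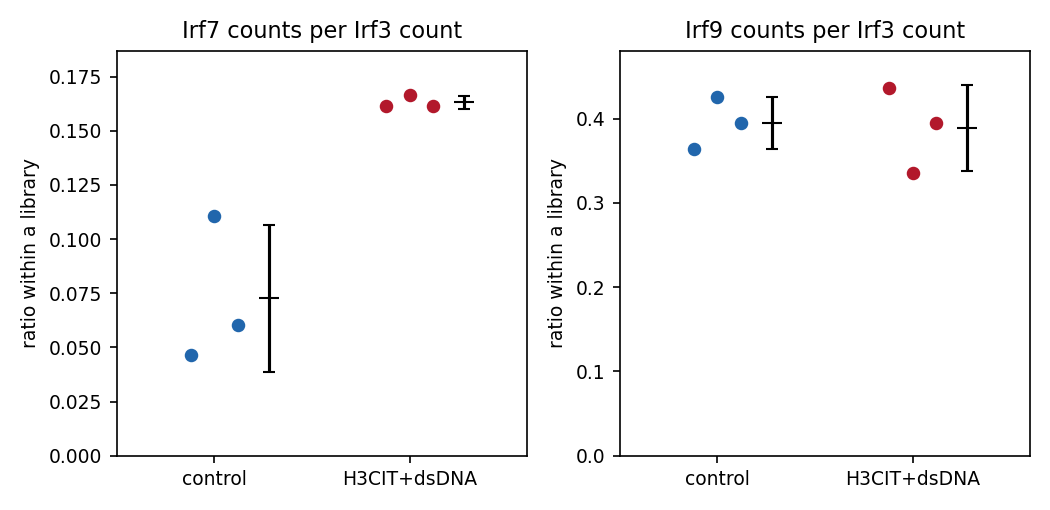
Counts of Irf7 (left) and of Irf9 (right) divided by the counts of Irf3 in the same library, for 3 control (blue) and 3 H3CIT+dsDNA (red) libraries with mean and SD in black, axes from 0. The Irf7 ratio lies between 0.161 and 0.167 in the stimulated libraries and at most 0.111 in controls, and the Irf9 ratios of the groups overlap.

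The regions just before the transcription starts of Irf3, Irf7, Irf9 and Irf1 are shown because the first 3 genes rose and Irf1, a classical interferon-gamma target, did not pass the test. They are the 250 bases before the start in RefSeq's annotation of GRCr8, a later assembly than Rnor6.0, to which the authors mapped, printed 5′ to 3′ on the strand of the gene. RefSeq's table held 7 of the 8 members, all but Irf2. Searched on both strands were the IRF core AANNGAAA, the fuller ISRE GAAANNGAAA, which contains the core, and the GAS element TTCNNNGAA bound by STAT dimers. The NF-kB site of 10 bases, which reads differently on the opposite strand, was searched on the strand of the gene only. Capitals mark every match of this search. The Irf3 region is chr1:104616358-104616607 (plus strand), the Irf7 region chr1:205800024-205800273 (minus strand), the Irf9 region chr15:33065586-33065835 (plus strand) and the Irf1 region chr10:38417685-38417934 (plus strand).
Irf3: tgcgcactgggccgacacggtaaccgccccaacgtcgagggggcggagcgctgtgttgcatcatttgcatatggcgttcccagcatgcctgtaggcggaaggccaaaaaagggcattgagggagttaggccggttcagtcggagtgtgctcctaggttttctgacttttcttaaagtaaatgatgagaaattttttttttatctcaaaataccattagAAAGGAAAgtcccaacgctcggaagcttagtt
Irf7: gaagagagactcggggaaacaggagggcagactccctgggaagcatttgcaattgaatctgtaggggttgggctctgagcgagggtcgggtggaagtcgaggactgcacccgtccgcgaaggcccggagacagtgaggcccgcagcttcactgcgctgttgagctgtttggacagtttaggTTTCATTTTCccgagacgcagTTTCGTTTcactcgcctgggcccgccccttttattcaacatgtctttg
Irf9: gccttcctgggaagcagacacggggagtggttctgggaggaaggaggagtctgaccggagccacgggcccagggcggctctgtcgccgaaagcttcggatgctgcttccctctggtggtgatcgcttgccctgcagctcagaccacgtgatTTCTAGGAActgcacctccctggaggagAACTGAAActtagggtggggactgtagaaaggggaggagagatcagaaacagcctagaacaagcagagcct
Irf1: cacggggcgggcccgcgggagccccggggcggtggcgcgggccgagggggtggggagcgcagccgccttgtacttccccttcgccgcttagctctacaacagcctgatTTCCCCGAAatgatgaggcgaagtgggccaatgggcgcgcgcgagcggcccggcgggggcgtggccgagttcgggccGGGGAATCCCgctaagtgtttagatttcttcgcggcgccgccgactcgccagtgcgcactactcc

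Counting back from -1 at the base before the start, Irf7 had core matches from -69 to -62 and from -48 to -41, both on the opposite strand, and the first was part of a full ISRE from -69 to -60. Irf9 had a core match from -71 to -64 and a GAS match from -99 to -91. Irf3 had a core match from -32 to -25. No core was found in the same window of Irf1, Irf4, Irf5 and Irf8. Irf1 instead had a GAS match from -142 to -134 and an NF-kB match on its own strand from -65 to -56, and Irf8 had 2 GAS matches. The NF-kB match does not set Irf1 apart from Irf3. On the opposite strand, which was not searched for NF-kB, the printed Irf3 letters also fit that site, overlapping the core match. Among all 33469 rat windows of this length, 23.3% held the core, 3.41% the full ISRE and 7.67% the GAS element. The NF-kB site, on the strand of the gene only, was in 4.42%. The core was thus in all 3 members that rose and in none of the other 4 with a sequence. Of these 4, Irf4 was not tested, and the uncalled Irf2 had no sequence to read. This is a description of letters and not evidence of binding.

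The genes lying next to Irf3, Irf7 and Irf9 in the GRCr8 annotation were read as well, since neighbours share chromatin and, where they overlap, can share reads. Irf3 overlaps Bcl2l12, a gene of the BCL2-like family on the opposite strand. Bcl2l12 had 326, 330 and 343 counts in the stimulated libraries and 436, 413 and 423 in controls, lower in each stimulated library, with a log2 fold change of -0.32 ± 0.07 (SE) and an edgeR adjusted p of 0.0289. The direction was therefore opposite to that of Irf3. The call is a weak one, being met in 8 of 15 alternative fits with adjusted p between 0.0165 and 0.146, among them 0.0832 with DESeq2, and it was lost without any of 5 libraries taken out singly. Scaf1, on the other side of Irf3, was at -0.02 (adjusted p = 0.837 from edgeR).

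Irf7 lies between Phrf1 and Cdhr5, whose log2 fold changes were -0.03 and -0.0032 with standard errors of 0.04 and 0.20. Rnf31, next to Irf9 and the gene of a linear ubiquitin ligase subunit, was at -0.02 (standard error 0.09), and the other neighbour, Rec8, had 1 count in all libraries together. None of these 3 tested neighbours was called by edgeR or in any of its 15 alternatives, DESeq2 and limma-voom included, and none had an unadjusted p under 0.05.

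**Figure D3:**
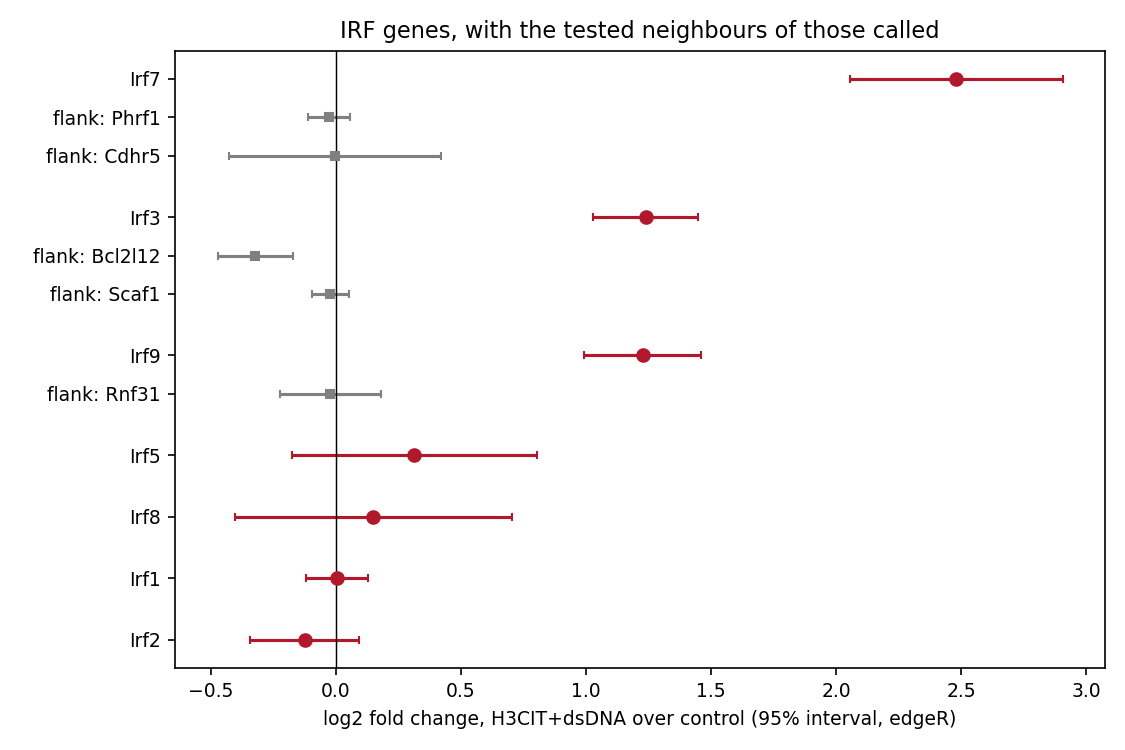
Log2 fold change (H3CIT+dsDNA over control, horizontal axis) with its 95% interval from edgeR for the 7 tested IRF genes (red circles) and for the tested neighbours of Irf7, Irf3 and Irf9 in the GRCr8 annotation (grey squares). Irf7, Irf3 and Irf9 stand to the right of their neighbours, which lie between -0.32 and -0.0032.

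Irf1 encodes the activator that interferon-gamma and NF-kB classically induce within hours. It had 655, 632 and 658 counts in stimulated cells and 657, 630 and 686 in control cells, and the groups overlapped completely. Irf1 was at 36.1 ± 0.196 CPM (SD, n = 3) and 35.9 ± 1.70 CPM (SD, n = 3), which is 0.0070 ± 0.06 (SE) in log2 units, with an edgeR adjusted p of 0.975. The 95% interval of the fold ran from 0.922 to 1.09, so that a change as large as that of Irf3 lay well outside it. Irf3 per Irf1 count was 1.504, 1.576 and 1.365 in the stimulated libraries and 0.690, 0.544 and 0.650 in controls, without overlap (exact permutation p = 0.1, the smallest possible).

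Irf2, which encodes the antagonist of IRF1 at shared elements, had 195, 193 and 236 counts in the stimulated libraries and 215, 228 and 250 in controls. Stimulated library 3 fell among the controls. The log2 fold change was -0.12 ± 0.10 (SE; edgeR adjusted p = 0.628), with a 95% interval of the fold from 0.790 to 1.07. Irf2 per Irf1 count gave an exact permutation p of 0.2, and the means of this ratio were 0.321 ± 0.0332 (SD, n = 3) and 0.351 ± 0.0208 (SD, n = 3).

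Irf5 and Irf8, typical of myeloid cells, were counted at low levels. Irf5 had 39, 54 and 46 counts after H3CIT + dsDNA and 43, 35 and 36 in controls, with only stimulated library 1 below the highest control. Its log2 fold change was 0.31 ± 0.23 (SE; edgeR adjusted p = 0.583), and the interval of the fold, 0.886 to 1.75, is wide because counting error alone reached 14.7% and 16.2% per library in the stimulated and control groups. Irf8 had 45, 28 and 37 counts compared with 29, 42 and 30, in full overlap, a log2 fold change of 0.15 ± 0.25 (SE; edgeR adjusted p = 0.843) and an interval of the fold from 0.757 to 1.63. Changes within these intervals could not be told apart from no change at this depth. The bounds are not the smallest change that would be called. Beside them, Spi1, the gene of the myeloid partner PU.1, had 25, 20 and 30 counts against 26, 28 and 22.

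Irf4, a lymphocyte and dendritic cell factor, had 0 counts in all 3 stimulated libraries and 0, 0 and 2 counts in controls. It was not tested. A count of 0 allows up to 0.165 to 0.170 CPM in a stimulated library (3 counts, counting error only), so a change in Irf4 could not be seen. The lymphocyte markers Cd8a and Ms4a1 were also at 0 in all libraries.

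Around the IRFs, 19 genes of the sensors, adaptors and kinases that activate them were listed, of which 16 could be tested. Higher after H3CIT + dsDNA were 5, none was lower, and 11 were not called, with a median log2 fold change of 0.12. Myd88, the adaptor of most Toll-like receptors, went from 234, 221 and 232 counts in controls to 629, 687 and 637, a log2 rise of 1.54 ± 0.07 (SE; edgeR adjusted p = 1.93e-08). Mb21d1, the gene of the DNA sensor cGAS, went from 53, 55 and 63 counts to 134, 156 and 177, a log2 rise of 1.48 ± 0.15 (SE; edgeR adjusted p = 5.25e-05). The kinase gene Tbk1 rose less, by 0.66 ± 0.08 (SE; edgeR adjusted p = 0.000249), and the groups of all 3 genes were clearly apart. The remaining called genes were Tmem173 (STING), at 0.91 ± 0.12 (SE), and Tlr4, at 0.84 ± 0.10 (SE). On the same path, the kinase gene Ikbke was at 0.0004 (adjusted p = 0.999 from edgeR) with 381, 367 and 320 counts against 352, 355 and 382. Tlr7 and Tlr9 had no count.

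Of the type I interferon genes listed, Ifna1 and Ifna2 had 0 counts throughout and Ifnb1 had 1 count, in stimulated library 3. Ifng, a product of lymphocytes, had 67, 66 and 68 counts after H3CIT + dsDNA, a run of consecutive whole numbers, and 32, 23 and 26 in controls (log2 fold change 1.34 ± 0.21, SE; edgeR adjusted p = 0.00327). Of the 12 tested genes among interferons, their receptors and JAK-STAT genes, 2 were called, Ifng and the kinase gene Jak2, which rose by 1.68 ± 0.09 (SE) in log2 units with an edgeR adjusted p of 6.85e-08. The list had a median of 0.07. No IRF gene had such a run of counts in either group.

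Stat2, the gene of a partner of IRF9 in ISGF3, had 1956, 1864 and 1941 counts in the stimulated libraries and 2032, 1982 and 2199 in controls, in overlap on the CPM scale. It was not called, at a log2 fold change of -0.08 ± 0.04 (SE; edgeR adjusted p = 0.459). The 95% interval of the fold ran from 0.884 to 1.01 and did not reach the 2.34-fold of Irf9.

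Targets of type I interferon were counted next. The list held 25 genes, of which 24 were in the table and 17 could be tested. None was called by edgeR, DESeq2 or limma-voom, and 1 gene, Eif2ak2 (PKR), had an unadjusted p-value under 0.05 in edgeR, at 0.28 ± 0.09 (SE) in log2 units and an adjusted p of 0.149. The median was 0.0190. Isg15, the ubiquitin-like modifier, had 82, 83 and 106 counts against 79, 95 and 115. Usp18, which removes ISG15 from proteins, had 574, 562 and 614 against 559, 577 and 625. Ifit1 was at -0.23 (standard error 0.18), Mx2 at 0.16 (0.16) and the chemokine gene Cxcl10 at -0.27 (0.18), each with groups that overlapped. The groups did not overlap for 2 tested genes of the list, Eif2ak2 and Rsad2, both higher after H3CIT + dsDNA. Rsad2 was at 0.17 (standard error 0.14, edgeR adjusted p = 0.634). Over all tested genes 19.1% had groups that did not overlap.

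Of 18 genes linked to IRF1 and interferon-gamma 12 were tested and none was called by any of the 3 tools. In edgeR 1 of them, the peptide transporter gene Tap1, had an unadjusted p-value under 0.05, at -0.13 (standard error 0.05, adjusted p = 0.205). Gbp2 was at 0.04 and the immunoproteasome gene Psmb9 at -0.07, and the median was -0.02. Among 14 IRF binding proteins and cofactors, 10 were tested and none was called by these tools. Only the acetyltransferase gene Ep300 had an unadjusted p-value under 0.05 in edgeR, at 0.17 (standard error 0.06, adjusted p = 0.195). The corepressor genes Irf2bp1, Irf2bp2 and Irf2bpl were at -0.10, 0.07 and -0.10.

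**Figure D4:**
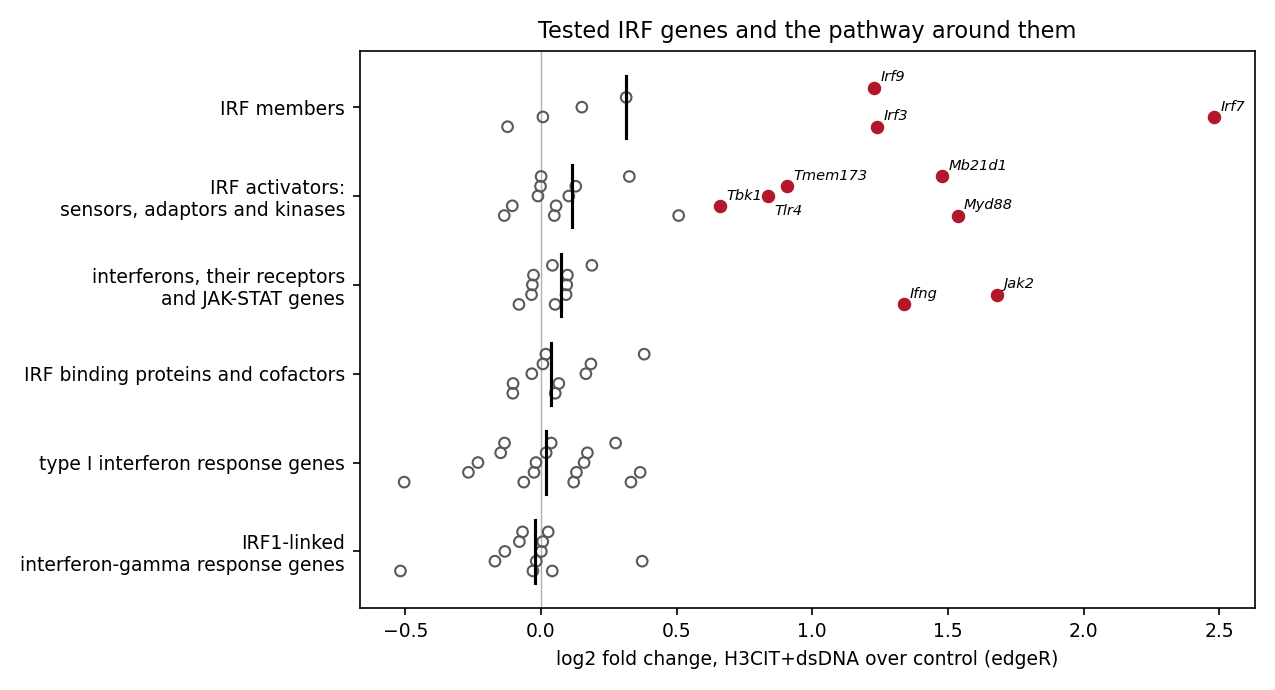
Log2 fold change (H3CIT+dsDNA over control, horizontal axis) of each tested gene in the IRF family and in 5 lists around it, filled red where edgeR called the gene and open where not, with a black line at the median of each list. Called genes stand in the first 3 rows, and the 39 tested genes of the last 3 rows are all open.

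The genes most like each rising member were taken as those with the highest Pearson correlation of log2 CPM over the 6 libraries, a measure set largely by the difference between the groups. For Irf7 these were Zfp451 (r = 0.9996), a zinc finger gene (log2 fold change 0.17, not called), and Jak2 (r = 0.998). For Irf3 they were Adarb2 (r = 0.995), with 54, 55 and 56 counts against 29, 22 and 27, and Ocrl (r = 0.993). For Irf9 they were Etfbkmt (r = 0.996) and Fbxo3 (r = 0.994), with log2 fold changes of 0.32 and 0.30. Adarb2, Ocrl and Fbxo3 were called at 1.11, 0.27 and 0.30 by edgeR, calls that each failed in at least 5 of 15 alternative fits.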

How the data were processed

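RNA of 3 H3CIT + dsDNA and 3 control RASMC libraries was sequenced from stranded mRNA preparations. Per the study's methods, the authors mapped reads to Rnor6.0 with TopHat 2.1.1 and obtained gene counts with HTSeq. The deposited table holds raw counts, not normalized, 1 column per library. The labels also list Cufflinks and Cuffdiff, and which step they served is not given in the sources used here. The deposited values are whole numbers with unequal library totals. The strand setting of the counting is not given in the sources used here, so genes that overlap or are antisense can share reads. Groups and replicate numbers came from the sample titles. All tests were made on these counts with edgeR 4.0.16 in R 4.3.3: filterByExpr, TMM, quasi-likelihood test, two-sided, Benjamini-Hochberg adjustment over all tested genes. The SE of a log2 fold change is its size without shrinkage divided by the root of its F statistic. Library totals of 17573905 to 18742395 leave genes near 30 counts imprecise. Alternatives were other scalings, DESeq2 1.42.0, limma-voom (limma 3.58.1), other filters, robust dispersions, a replicate block and leaving out each library. The code was tested on simulated data.

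The 8 genes and all lists were chosen with earlier results of these data known. Besides the members, the rule for named genes took up to 3 called genes per list and direction and the 2 genes most like each called member. Tmem173, Tlr4, the neighbouring genes and all uncalled genes named were picked after their values were seen. Promoter windows were read from RefSeq's GRCr8 table, of which only names, neighbours and these windows were used; 17139 of the symbols were matched. Gene lengths of the authors' build were not used, so CPM values, and sums of them over marker genes, are not corrected for length and do not rank genes by transcript number. Some genes are not reported here.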

Additional observations from a re-analysis of the deposited data

How the results depend on the processing

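Irf3, Irf7 and Irf9 kept their calls and their direction in all 15 alternatives. The log2 fold change ran from 1.11 to 1.33 for Irf3, from 2.32 to 2.73 for Irf7 and from 1.12 to 1.29 for Irf9, in each case with both ends reached by leaving out 1 library, and the largest adjusted p was 8.26e-05, 7.45e-05 and 9.46e-05. Irf1, Irf2, Irf5 and Irf8 were not called in any alternative. The sign of the uncalled Irf1 difference changed in 2 of them, between -0.03 and 0.03, and that of Irf8 in 1. With a replicate block 3 members were called, the same number as without it, and it ended the calls of Bcl2l12, Adarb2, Ocrl, Fbxo3 and Smtn but of no IRF gene. Replicate numbers did not pair the libraries, since deviations from the group means correlated at -0.0458, 0.00452 and 0.0355 for the 3 numbers. The number of called genes, 277 in all, ran from 164 to 357 when 1 library was left out and was 212 with the block. Scaling moved the median log2 fold change of all tested genes by no more than 0.02. The number of called genes in each list stayed within 1.5 times its main value in every alternative. Depth limits Irf4, Irf5 and Irf8, and the low control counts of Irf7 widen its interval.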
